A study of Mus musculus with 10 samples.

Results

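Ces1d and 7 of its paralogs, Ces1c, Ces1e, Ces1f, Ces1g, Ces2a, Ces2c and Ces2e, were followed in the terminal ileum of mice after weight-loss surgery. These 8 carboxylesterase genes were taken by symbol from the 36401 genes in the deposited count tables, and each symbol matched 1 gene. The set was chosen by the fold change and p of Ces1d between operated and control mice in these same libraries, where it ranked 1 of 15678 tested genes. Its difference between the surgery groups is therefore a description and carries no test. The question put to the other 7 genes was whether they followed it.

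The libraries came from male C57Bl6 mice made obese on a 60 kcal % high fat diet, which the labels give as 6 weeks of feeding before surgery, with an age of 8 weeks at surgery. In vertical sleeve gastrectomy (VSG) most of the stomach is removed along its outer curve, and these mice then ate ad libitum; the controls had a sham operation and were pair-fed to the VSG mice (SPF). All mice received liquid Osmolite, a nutrient formula, for the 4 days around surgery. About 8 weeks later every mouse was fasted overnight, gavaged with 0.5 mL Osmolite and killed 1 h afterwards, so no library came from an unfed mouse or from one that kept its normal intake without surgery. There were 5 VSG and 5 SPF libraries of terminal ileum with 15364651 to 34058181 estimated counts each. The labels number the libraries but do not say how animals were housed or paired, so the p-values below measure only the spread between these libraries.

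Carboxylesterases are serine hydrolases of the alpha/beta-hydrolase fold. Most reside in the lumen of the endoplasmic reticulum, held there by a retention signal at the C-terminus, and they cleave ester bonds in drugs, in acylglycerols and in retinyl and cholesteryl esters. In mice the Ces1 and Ces2 genes multiplied into clusters. Ces1 enzymes are best known from liver and fat, whereas Ces2 enzymes are abundant in the small intestine, where they hydrolyse prodrugs and acylglycerols.

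The catalytic serine of these enzymes sits in a short motif of the form Gly-x-Ser-x-Gly. The 50 bases around its codons are shown for all 8 members, because they are of the length of 1 read and let the reader see how far a read could tell the genes apart. The sequences are 5′ to 3′ from the longest coding transcripts of GENCODE release M21 (genome build GRCm38), and the capitals mark the 5 codons of the motif.
Ces1d: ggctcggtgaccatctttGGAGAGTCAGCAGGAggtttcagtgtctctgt
Ces1c: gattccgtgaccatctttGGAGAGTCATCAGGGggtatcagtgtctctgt
Ces1e: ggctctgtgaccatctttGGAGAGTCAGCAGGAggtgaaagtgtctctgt
Ces1f: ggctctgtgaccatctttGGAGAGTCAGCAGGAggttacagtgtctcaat
Ces1g: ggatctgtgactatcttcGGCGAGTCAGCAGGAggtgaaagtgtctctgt
Ces2a: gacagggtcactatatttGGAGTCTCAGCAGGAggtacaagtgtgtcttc
Ces2c: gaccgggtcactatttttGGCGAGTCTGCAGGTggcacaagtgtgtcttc
Ces2e: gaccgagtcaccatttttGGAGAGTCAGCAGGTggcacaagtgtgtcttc

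The capitals of Ces1d, Ces1e and Ces1f were identical letter for letter. Over the whole window Ces1e and Ces1f each differed from Ces1d at 4 of 50 bases, Ces1c at 6 and Ces1g at 8. The Ces2 windows stood further away, with 14 mismatches for Ces2a and Ces2e and 16 for Ces2c. The serine was codon 221 of 565 in Ces1d and codon 230 of 561 in Ces2c. Across the whole coding sequence Ces1d shared 81.6% of aligned bases with Ces1g, 80.4% with Ces1e, 78.9% with Ces1c and 77.7% with Ces1f, against 59.9% to 60.2% with the Ces2 members. The 3 Ces2 members shared 82.7% to 83.8% with each other. In the RefSeq annotation of the same build the genes form a run on chromosome 8, with Ces1a to Ces1h in alphabetical order, then Ces5a, then Ces2a to Ces2h, Ces3a, Ces3b and Ces4a.

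How far reads could be told apart differed between members. In Ces1d only 1.28% of all 50-base windows of the transcript occurred without a mismatch in another gene, and 10.6% matched another carboxylesterase with at most 2 mismatches. The identical shares were 1.60% in Ces1f, 1.67% in Ces1g, 3.21% in Ces1e and 3.36% in Ces2e. They were higher in Ces1c, where 17.0% of windows were identical to another gene, and in Ces2a with 22.2%. With at most 2 mismatches the share was 41.2% in Ces1c, where 39.0% of windows matched Ces1b, and 65.85% in Ces2c. In the other members it ran from 8.15% (Ces1f) to 17.95% (Ces2a). The largest identical share of Ces2a with any 1 carboxylesterase was 1.26%, with Ces2e, and 2 genes outside the family also held windows of Ces2a. In Ces2c 42.2% of windows were identical to another gene, most of them in the neighbouring pseudogene Ces2d-ps, and its window around the serine shown above also occurred in Ces2b, Ces2d-ps and Gm8798. The other 7 printed windows occurred in their own gene alone. The values of Ces2c and Ces2d-ps are therefore uncertain as single genes. With at most 2 mismatches counted, this holds in part for Ces1c and Ces1b too. The ratio of normalised counts, Ces2d-ps over Ces2c, stayed between 0.630 and 0.720 in the 10 libraries. No label states whether counting used strand, and reads from transcripts antisense to a member could not be separated.

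**Figure D1:**
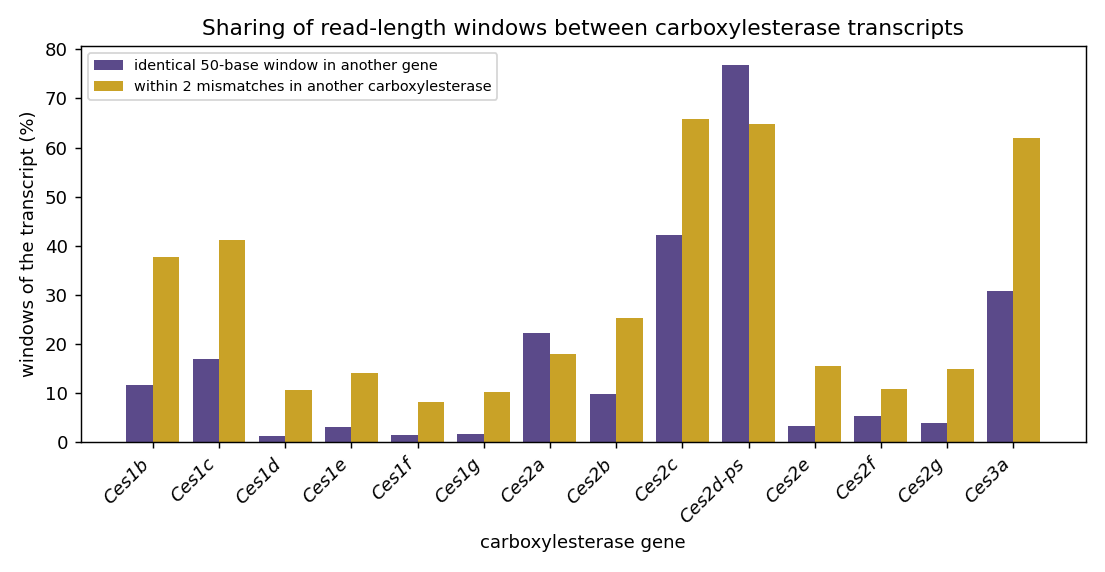
Share of 50-base windows of each carboxylesterase transcript (vertical axis, percent) that are identical to a window of another gene, or within 2 mismatches of another carboxylesterase. Ces1d is among the lowest with 1.28% identical, and Ces2c and Ces2d-ps are the highest with 42.2% and 76.9%.

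Libraries differed in regional markers, which bears on their label of terminal ileum. VSG 2, SPF 2 and SPF 4 held 109 to 183 CPM of Gata4, a regulator that marks duodenum and jejunum, against 1.72 to 6.28 CPM in the other 7 (CPM are counts scaled to a common library size). In the same 3 libraries the ileal bile acid binding protein Fabp6 was at 39.0 to 62.1 CPM, against 2558 to 6112 CPM elsewhere, which goes against the label for those 3. They were set apart by a score over 8 markers of the upper small intestine, called proximal markers here, that include no carboxylesterase, and they are not groups of the study. Within the marker list the score did not move as one: Slc40a1 was lower in these 3 libraries, at 3.68 to 13.6 CPM against 35.8 to 98.3 CPM, and Cybrd1 overlapped, at 5.01 to 5.75 against 3.58 to 7.05 CPM. The surgery differences of the members and the counts of each pathway list are therefore given with and without these libraries. Whether this marker difference has a part in any surgery difference was not tested beyond those comparisons.

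Measured per length, the 3 Ces2 members were the most abundant of the 8 members in these libraries. The mean over the 10 libraries, in CPM per kilobase of the longest coding transcript, was 513.6 ± 131 (SD, n = 10) for Ces2e, 172 ± 70.0 for Ces2c and 102 ± 37.0 for Ces2a. Ces2e, Ces2c and Ces2a kept this order in 10 of 10 libraries. Ces1f was the most abundant Ces1 member at 32.2 ± 24.6 CPM per kilobase and lay below Ces2a in every library. Ces1e and Ces1d followed with 6.64 ± 8.90 and 6.49 ± 3.48. These neighbours could not be ordered, since Ces1e was above Ces1d in only 3 of 10 libraries. Ces1d exceeded Ces1g (2.90 ± 2.19) in all 10, and Ces1g exceeded Ces1c (1.53 ± 0.85) in 8. Not every Ces2 gene was that abundant. Outside the members the means were 13.4 for Ces2g, 10.3 for Ces2b, 2.91 for Ces2f and 0.16 for Ces2h, all below Ces1f. The pseudogene Ces2d-ps was at 136. The 5 Ces1 members made up 2.21% to 3.67% of the summed CPM of the 8 members in the VSG libraries and 3.96% to 12.1% in the SPF libraries. That sum contains Ces1d and is given as a description.

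Ces1d encodes triacylglycerol hydrolase, an enzyme of the endoplasmic reticulum known for mobilising stored triglyceride in liver and fat cells. Its level in CPM was 9.06, 6.87, 6.62, 5.42 and 7.36 in VSG libraries 1 to 5 and 18.0, 19.1, 13.2, 25.7 and 18.6 in SPF libraries 1 to 5. Every VSG library was below every SPF library, with 9.06 as the highest VSG value and 13.2 as the lowest SPF value. The means were 7.07 ± 1.32 (SD, n = 5) and 18.9 ± 4.47 (SD, n = 5), a log2 difference of -1.42 ± 0.20 (SE). Separation of this kind, all VSG below all SPF, was found in 46 genes, or 0.293% of those tested, and Ces1d was 1 of them by choice. Without SPF 4 the log2 difference was -1.27. In bulk tissue, fewer cells of a type and less RNA per cell cannot be told apart, for Ces1d or for any gene below.

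None of the 7 paralogs passed an adjusted p of 0.05 in edgeR's quasi-likelihood test, but the 4 Ces1 paralogs had log2 differences between -1.91 and -1.08, around the -1.42 of Ces1d. No gene of the 15678 tested passed (0%), while 595 had an unadjusted p under 0.05. The 4 Ces1 paralogs were 4 of the 300 genes (1.91%) that were lower in VSG libraries at an unadjusted p under 0.05, and none of the 3 Ces2 members had such a p in either direction (1.88% of genes were higher at that p). Of the 8 members 6 had a difference below 0, as had 58.1% of all tested genes. The median log2 difference was -1.17 over the 4 Ces1 paralogs and 0.01 over the 3 Ces2 members, against -0.05 over all tested genes. A log2 difference below -1 was found in 1.35% of all tested genes and in each Ces1 paralog. DESeq2 called 11 genes and limma-voom none, and neither called a paralog. An unadjusted p under 0.05 was reached by 4 Ces1 paralogs in DESeq2 and by 3 in limma-voom. Over all 15678 tested genes, 727 had such a p in DESeq2 and 542 in limma-voom, in either direction. Among the genes with an unadjusted edgeR p under 0.05, 49.6% were higher in VSG libraries. This share was 32.2% when libraries were scaled by their totals alone. All 4 Ces1 paralogs had a negative difference under every scaling, tool and omission tried.

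**Figure D2:**
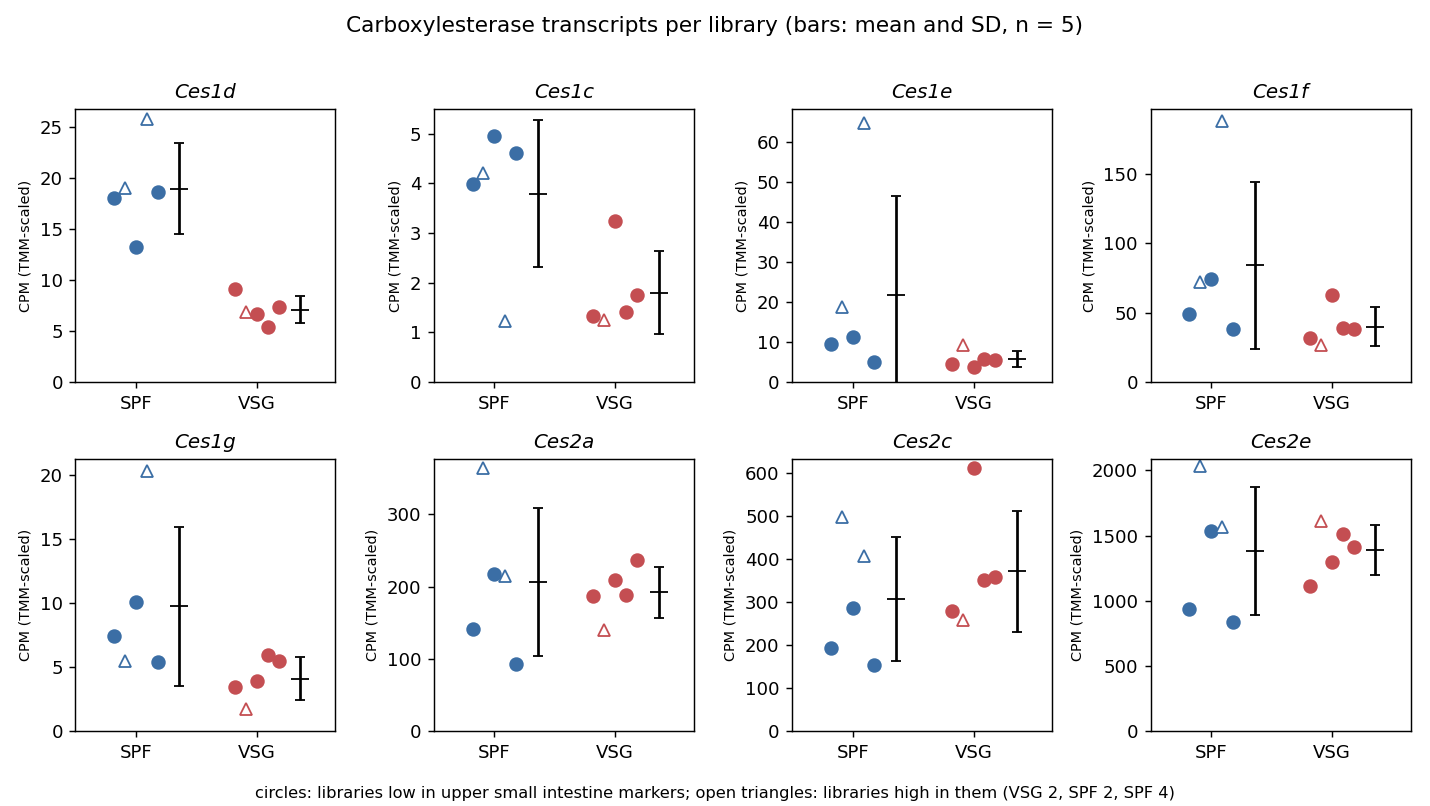
CPM of each member (vertical axes, linear from 0) in the 5 SPF and 5 VSG libraries, with the mean and SD beside each group; open triangles mark VSG 2, SPF 2 and SPF 4, the libraries high in proximal markers, and the lower SD bar of Ces1e in SPF runs below 0 and is clipped. Ces1d is the member whose groups do not overlap, and the SPF points of Ces1e, Ces1f and Ces1g spread upward to SPF 4.

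Ces1c encodes an esterase that is secreted into mouse plasma. Its CPM was 1.33, 1.24, 3.24, 1.42 and 1.76 in VSG libraries 1 to 5 and 4.00, 4.20, 4.96, 1.23 and 4.60 in SPF libraries 1 to 5. The groups overlapped through 2 libraries: VSG 3 was the highest of its group, and SPF 4 was lower than every VSG library. The means were 1.80 ± 0.83 and 3.80 ± 1.49 (SD, n = 5 each). The log2 difference was -1.10 ± 0.39 (SE), with a 95% interval from -1.95 to -0.25 and an edgeR adjusted p of 0.977. SPF 4, the lowest SPF library for Ces1c, was the highest of all for Ces1d.

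Ces1e encodes egasyn, which anchors beta-glucuronidase in the endoplasmic reticulum. Its CPM was 4.57, 9.20, 3.78, 5.66 and 5.56 in VSG libraries 1 to 5 and 9.45, 18.7, 11.1, 64.7 and 4.89 in SPF libraries 1 to 5. The groups overlapped, and SPF 4 was more than 3 times as high as any other library. The means were 5.76 ± 2.07 and 21.8 ± 24.5 (SD, n = 5 each), the SPF spread exceeding its mean. The log2 difference was -1.91 ± 0.62 (SE), with a 95% interval from -3.27 to -0.55 and an edgeR adjusted p of 0.977. Without SPF 4 it was -0.92.

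Ces1f encodes a liver triglyceride hydrolase related to Ces1d. Its CPM was 31.8, 26.4, 62.9, 39.1 and 38.5 in VSG libraries 1 to 5 and 48.8, 71.8, 74.0, 188.6 and 38.0 in SPF libraries 1 to 5. SPF 1 and SPF 5 lay within the VSG range, and SPF 4 far above all others. The means were 39.7 ± 13.98 and 84.2 ± 60.3 (SD, n = 5 each). The log2 difference was -1.08 ± 0.41 (SE), with a 95% interval from -1.98 to -0.18 and an edgeR adjusted p of 0.977. Without SPF 4 it was -0.54.

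Ces1g encodes the esterase named Ces1 or Es-x in older work, which is known to affect blood lipids and secretion of triglyceride-rich lipoproteins. Its CPM was 3.44, 1.75, 3.92, 5.93 and 5.48 in VSG libraries 1 to 5 and 7.47, 5.49, 10.1, 20.3 and 5.44 in SPF libraries 1 to 5. The groups overlapped narrowly, with SPF 2 and SPF 5 at the level of VSG 4 and VSG 5. The means were 4.10 ± 1.68 and 9.76 ± 6.21 (SD, n = 5 each). The log2 difference was -1.24 ± 0.43 (SE), with a 95% interval from -2.18 to -0.30 and an edgeR adjusted p of 0.977. Without SPF 4 it was -0.78. With SPF 4 left out, 2 of the 4 Ces1 paralogs kept an unadjusted edgeR p under 0.05. In that run 486 of 15857 tested genes had such a p in either direction.

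The Ces2 members did not share the low VSG values of the Ces1 genes. Ces2e, an acylglycerol hydrolase of intestine and liver, ranged from 1112 to 1614 CPM in VSG and from 839.7 to 2031 CPM in SPF libraries. Its means were 1389.8 ± 195 and 1383 ± 492 (SD, n = 5 each), and the 95% interval of its log2 difference, 0.01 ± 0.26 (SE), ran from -0.56 to 0.57. Ces2a ranged from 140.3 to 236.5 CPM in VSG and from 93.9 to 363.5 CPM in SPF libraries, with a log2 difference of -0.10 ± 0.31 (SE) and an interval from -0.78 to 0.58. The sign of these small differences turned with the scaling or tool. Ces2c, an acylglycerol hydrolase of the small intestine, was at 280.2, 259.1, 609.6, 350.8 and 357.7 CPM in VSG libraries 1 to 5 and at 193.4, 496.8, 285.5, 407.9 and 155.0 CPM in SPF libraries 1 to 5. VSG 3 was the highest library for Ces2c, and the groups overlapped over most of their range. Its log2 difference was 0.27 ± 0.34 (SE) with an interval from -0.48 to 1.03. Without VSG 3 it was 0.03. The edgeR adjusted p values of Ces2a, Ces2c and Ces2e were 0.990, 0.977 and 0.999. These intervals do not show that the genes were alike in both groups: they reach down to -0.78 for Ces2a and up to 1.03 for Ces2c.

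**Figure D3:**
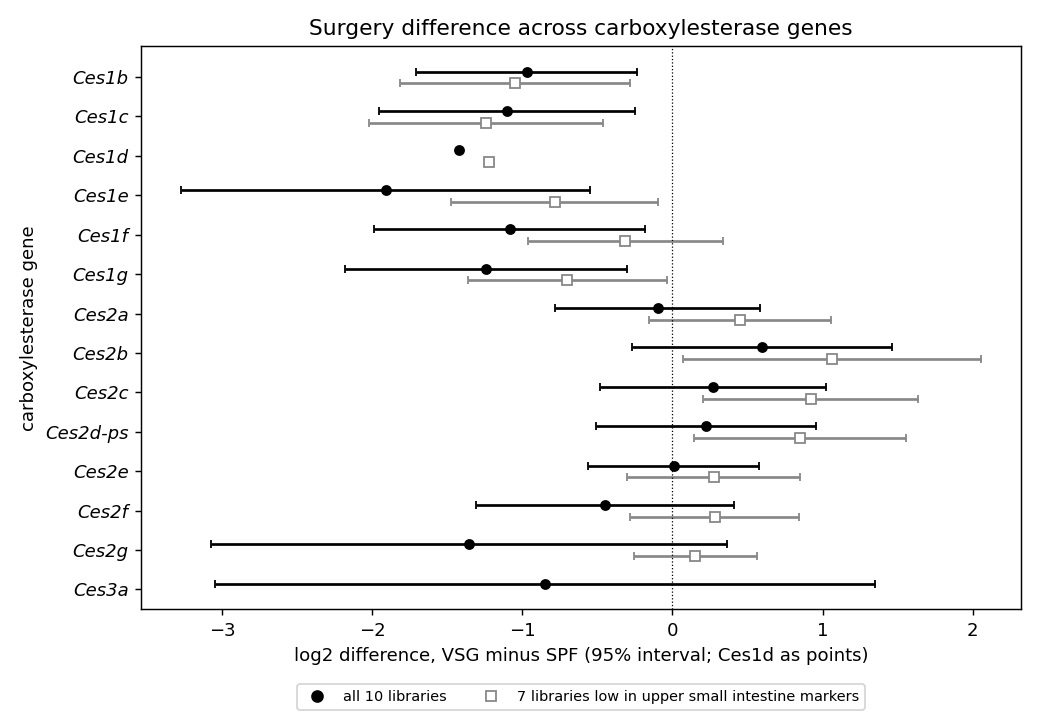
Log2 difference VSG minus SPF (horizontal axis) of the 14 tested carboxylesterase genes in all 10 libraries (filled circles) and in the 7 libraries low in proximal markers (open squares), with 95% intervals; Ces1d, which chose the set, is drawn as points without an interval. All 6 Ces1 genes lie left of 0 under both, and Ces2a moves from -0.10 to 0.45.

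Of the 12 other carboxylesterase genes, 6 were too low to be tested (Ces1a, Ces1h, Ces2h, Ces3b, Ces4a and Ces5a). The remaining Ces1 gene, Ces1b, ranged from 0.34 to 0.61 CPM in VSG and from 0.39 to 1.36 CPM in SPF libraries, with a log2 difference of -0.97 ± 0.33 (SE) and an edgeR adjusted p of 0.977. It shares windows with Ces1c: 10.7% of the Ces1c windows occurred in Ces1b without a mismatch. Among the rest, the log2 differences were 0.60 for Ces2b, 0.22 for Ces2d-ps, -0.45 for Ces2f, -1.35 for Ces2g and -0.85 for Ces3a, none called. Without SPF 4 those of Ces2g and Ces3a turned to 0.10 and 0.69, and without SPF 2 that of Ces2f turned to 0.0518. Without VSG 3 those of Ces2b and Ces2d-ps fell to 0.12 and 0.0037.

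In the 7 libraries low in proximal markers, 4 VSG and 3 SPF, the differences of Ces1d, Ces1e, Ces1f and Ces1g were smaller, those of Ces1c and Ces1b were not, and the differences of the 3 Ces2 members were all positive. Ces1d was at 5.42 to 9.06 CPM in the 4 VSG and 13.2 to 18.6 CPM in the 3 SPF libraries, a log2 difference of -1.22. Ces1c differed by -1.24 ± 0.34 (SE), Ces1e by -0.78 ± 0.30, Ces1g by -0.70 ± 0.29 and Ces1f by -0.31 ± 0.29. The first 3 had an unadjusted edgeR p under 0.05, as had 3.26% of the 15911 tested genes in that direction, and their adjusted p values ran from 0.633 to 0.704. Ces2c differed by 0.92 ± 0.31 (SE), with an adjusted p of 0.638, Ces2a by 0.45 ± 0.27 and Ces2e by 0.27 ± 0.25. Ces2c was the 1 paralog higher at an unadjusted p under 0.05, as were 3.7% of all tested genes. VSG 3, its highest library, is among these 7, and its omission from them was not tested. No gene was called in these 7 libraries (0%), and 1107 had an unadjusted p under 0.05. Markers of many cell types moved in the same 7 libraries. All T cell (7), B cell (6), smooth muscle (7) and fibroblast markers (7) were lower in VSG libraries, none at an unadjusted edgeR p under 0.05. Their median log2 differences were -0.92, -0.61, -0.63 and -0.50. Of 8 markers each, 7 enteroendocrine, 6 goblet cell and 6 macrophage markers were lower, with 4, 1 and 3 at that p. Of 4 tested mesothelial markers 3 were higher and 1 lower. All 10 enterocyte markers were higher in VSG libraries (median log2 difference 0.56, 3 at an unadjusted p under 0.05), with sums of 29710 to 49250 CPM in VSG and 17493 to 34606 CPM in SPF libraries. All 7 Paneth cell markers were lower (median -1.53, 6 at an unadjusted p under 0.05), with sums of 2631 to 10723 CPM in VSG and 12626 to 21003 CPM in SPF libraries. Over all 10 libraries 7 enterocyte markers were higher and 3 lower (median 0.23), and 1 Paneth cell marker was higher and 6 lower (median -0.69). All T cell, smooth muscle and fibroblast markers were lower there, with medians of -0.37, -0.79 and -0.38. Of the B cell markers 5 were higher and 1 lower (median 0.20). None of these had an unadjusted edgeR p under 0.05 over the 10 libraries. Goblet cell markers divided there into 4 higher and 4 lower, and macrophage markers into 2 and 6, none at that p. Of the enteroendocrine markers 2 were higher and 6 lower, with 1 lower at that p. All 3 tested mesothelial markers were higher. The part of any of these cell types in the carboxylesterase differences was not tested. With the marker class as a covariate over all 10 libraries, the log2 differences were -1.35 for Ces1d, -1.22 for Ces1c, -1.15 for Ces1e, -0.80 for Ces1f and -1.21 for Ces1g. The interaction of surgery with marker class had an unadjusted p under 0.05 for Ces1f, Ces1g, Ces2a and Ces2c, as for 5.59% of all tested genes, with a lowest adjusted p of 0.795 among the members. That term rests on VSG 2 as the only VSG library high in the markers.

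Ces1e was the 1 member that passed the test between the marker classes. It was at 9.20, 18.7 and 64.7 CPM in VSG 2, SPF 2 and SPF 4, against 3.78 to 11.1 CPM in the other 7. Within each surgery group the libraries high in the markers were above all that were low in them. With surgery in the model the log2 difference, high minus low, was 1.82 ± 0.42 (SE) and the edgeR adjusted p 0.0290. In that direction 3.57% of all tested genes passed and 1 of the 8 members did; 2.76% passed in the other direction and no member did. Ces2e was the other member with an unadjusted p under 0.05 for higher values there, as had 9.57% of all tested genes, and its adjusted p was 0.248. The call was lost when VSG 1, VSG 3, SPF 1, SPF 3, SPF 4 or SPF 5 was left out, with adjusted p values up to 0.130, reached without SPF 4, where the difference was 0.99. Ces1d differed by 0.25 ± 0.21 (SE), with a 95% interval from -0.22 to 0.72 and an adjusted p of 0.605. Ces1c had the most negative value, -0.68 ± 0.40, and Ces1f, Ces2a, Ces2c and Ces2e lay between 0.43 and 0.64, with Ces1f turning to -0.13 without SPF 4 and Ces2a to -0.0040 without SPF 2. Ces1g was near 0 at 0.08 ± 0.53, with a sign that turned in limma-voom and without 3 of the SPF libraries. Outside the members, Ces2g was higher by 2.58 ± 0.43 (SE) with an adjusted p of 0.00559, at 39.7 to 194.5 CPM against 11.8 to 17.3 CPM. Ces2f and Ces3a had differences of 1.10 ± 0.30 and 3.20 ± 0.88 with adjusted p values of 0.0591 and 0.0585.

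**Figure D4:**
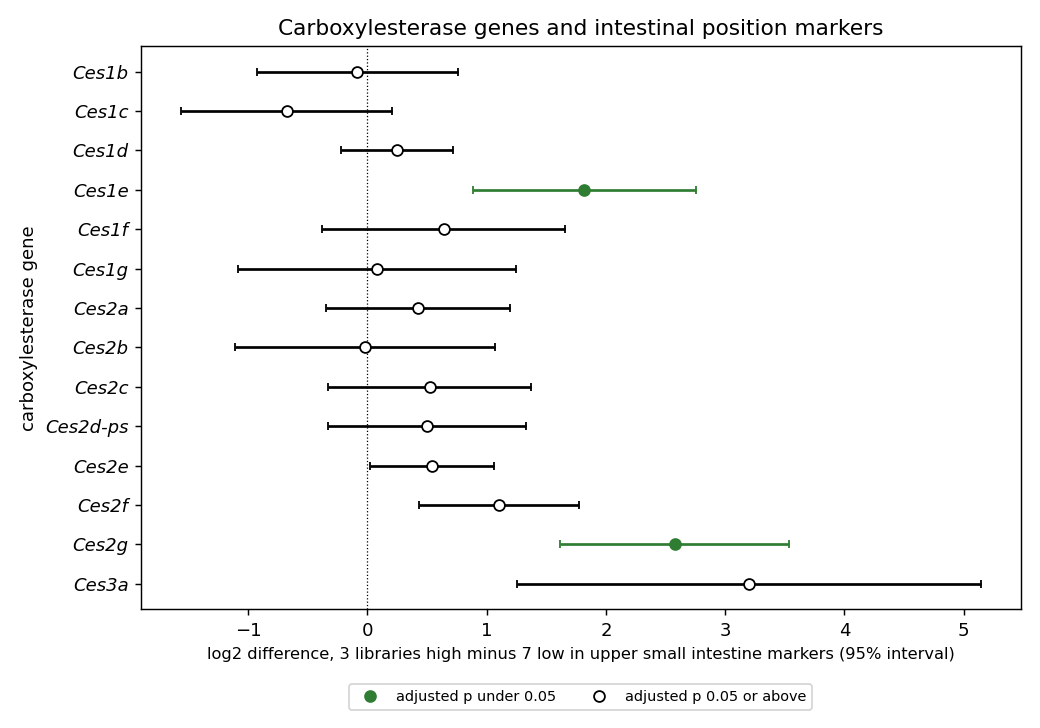
Log2 difference (horizontal axis) between the 3 libraries high and the 7 low in proximal markers, with surgery as a term, for the 14 tested carboxylesterase genes; bars are 95% intervals and filled points have an adjusted p under 0.05. Ces1e and Ces2g are the filled points, at 1.82 and 2.58, and Ces1d lies at 0.25.

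A second way to ask whether paralogs follow Ces1d is to see whether they move together among libraries of the same surgery group. After the group mean was subtracted from log2 CPM, Pearson's r of Ces1d over the 10 libraries was -0.60 with Ces1c, 0.45 with Ces1e, 0.29 with Ces1f and 0.13 with Ces1g. It was 0.05, 0.09 and -0.10 with Ces2a, Ces2c and Ces2e. Spearman's rho ran from -0.58 for Ces1c to 0.39 for Ces1e. The smallest exact permutation p within groups was 0.114 for r and 0.104 for rho, both for Ces1c, and the p values of r adjusted over the 7 paralogs ran from 0.800 to 0.950. Leaving out SPF 4 and VSG 4, the libraries farthest from the median in Ces1d, gave -0.46 for Ces1c and turned Ces1e to -0.12, Ces1f to -0.46 and Ces1g to -0.29. The positive values of the Ces1 paralogs rested on SPF 4.

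Because the libraries fall into 2 marker classes, r was also taken within the 7 that were low in proximal markers. There all 7 paralogs had a negative r with Ces1d, from -0.25 for Ces1c to -0.84 for Ces2e. The exact permutation p of Ces2e was 0.0208, which became 0.146 after adjustment over the 7 paralogs, with a rho of -0.89. Some pairs of the other members had larger values of r than any pair with Ces1d. Over the 10 libraries, with the group mean removed, r was 0.85 between Ces2a and Ces2c, 0.80 between Ces1f and Ces2c, 0.79 between Ces2a and Ces2e, 0.75 between Ces1f and Ces1g and -0.82 between Ces1c and Ces1e.

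**Figure D5:**
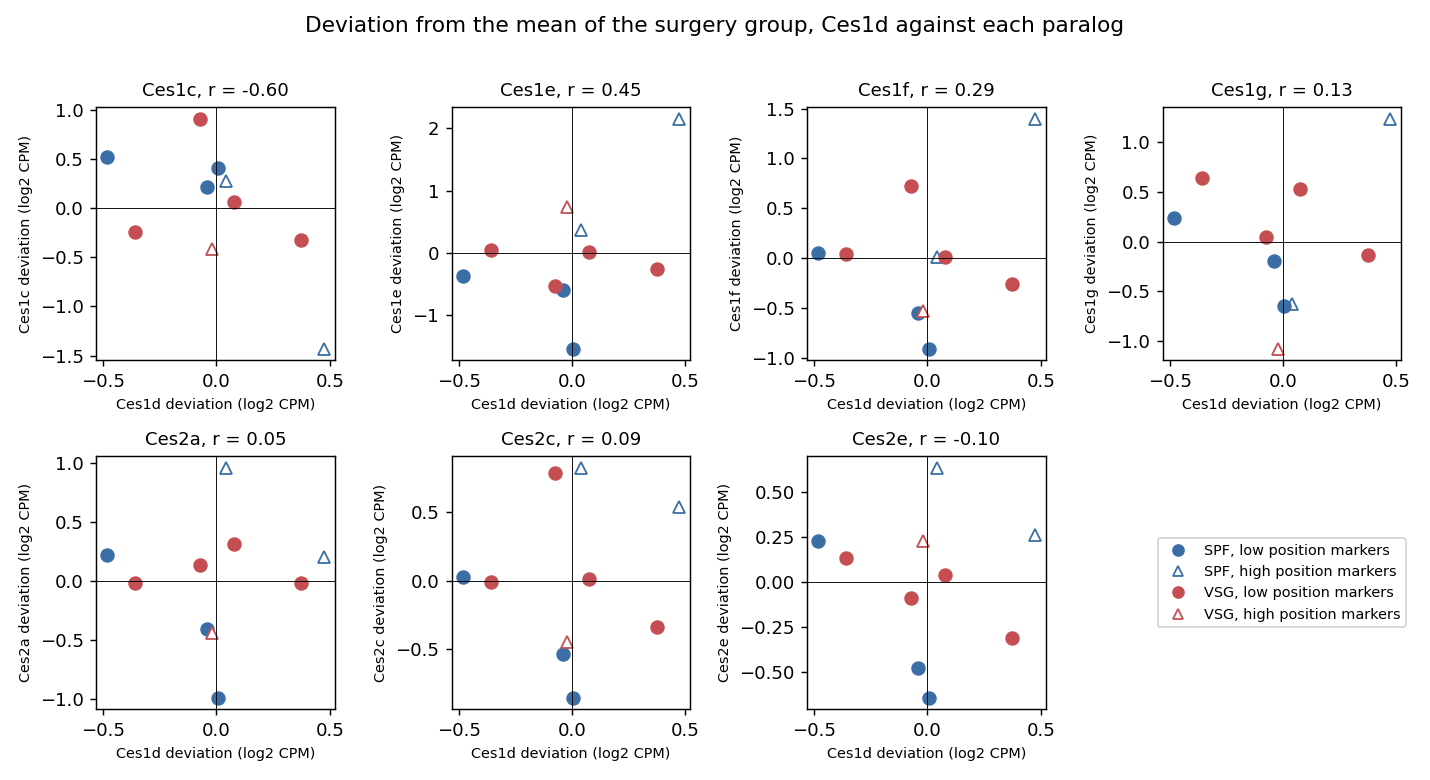
Deviation of each paralog from its surgery group mean (vertical axes, log2 CPM) against that of Ces1d (horizontal axes, log2 CPM) in 10 libraries; triangles are the 3 libraries high in proximal markers. The triangle at the upper right of the Ces1e, Ces1f and Ces1g panels is SPF 4, without which r is -0.12 or lower.

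Among 11008 genes whose mean reached 5 CPM, those most like Ces1d over the 10 libraries by r of log2 CPM were Dab1 (0.92), Slc25a23 (0.90), Myom3 (0.90), Trip6 (0.88) and Spon2 (0.88). With the group means removed they were Zbtb42 (0.93), Edc4 (0.92), D930048N14Rik (0.89), Ano9 (0.89) and Srsf5 (0.89). No gene was in both groups of 5, and no carboxylesterase was in either. They were picked as extremes of many correlations over few libraries and carry no test.

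Lipid and drug-handling genes outside the family gave no call between the surgery groups. Of all tested genes, 58.1% had a difference below 0 between these groups. Of 18 genes of neutral lipid hydrolysis, 7 were higher and 11 lower in VSG libraries, with a median log2 difference of -0.09. In the 7 libraries low in proximal markers the count was 10 higher and 8 lower, with a median of 0.04. At an unadjusted edgeR p under 0.05, 1 was higher and 3 lower there, as were 3.7% and 3.26% of all tested genes. Over all 10 libraries the lowest edgeR p values of this list belonged to Pnliprp2, Clps and Abhd5. Pnliprp2, a pancreatic lipase-related protein, differed by -1.13 ± 0.55 (SE) and Clps, the colipase gene, by -0.85 ± 0.51. Abhd5, the coactivator of adipose triglyceride lipase, differed by 0.32 ± 0.21. In the 7 libraries the values of Pnliprp2 and Clps were -1.85 and -1.72. With single libraries left out of the 10, Pnliprp2 ran from -1.39 (without SPF 4) to -0.69 (without SPF 5). Clps ran from -1.35 (without VSG 2) to -0.57 (without SPF 3). Of 19 genes of triglyceride resynthesis and chylomicrons, 12 were higher and 7 lower, with a median of 0.09. In the 7 libraries 18 were higher and 1 lower, with a median of 0.56. Of these, 8 were higher at an unadjusted edgeR p under 0.05, as were 3.7% of all tested genes. In the 3 libraries high in proximal markers 8 of the 19 were called higher, as were 3.57% of all tested genes. Between the surgery groups over all 10 libraries, Agpat2 and Lpin2, enzymes of glycerolipid synthesis, differed by 0.35 ± 0.24 and 0.45 ± 0.33. Cd36, a fatty acid transporter, differed by -1.12 ± 0.95. The Cd36 difference was -2.38 without VSG 2, -0.36 without SPF 2 and -0.19 in the 7 libraries. Cd36 was higher by 3.18 in the 3 libraries high in proximal markers (edgeR adjusted p 0.000331).

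Of 22 tested enzymes of xenobiotic metabolism, 3 were higher and 19 lower in VSG libraries, with a median of -0.53. Over all tested genes 58.1% had a difference below 0. Ugt2b5 and Ugt1a6a, which attach glucuronic acid, differed by -1.22 ± 0.43 and -0.93 ± 0.41, and the epoxide hydrolase Ephx1 by -0.62 ± 0.25. These 3 had an unadjusted p under 0.05, as had 1.91% of all tested genes in that direction, and their edgeR adjusted p was 0.977. In the 7 libraries low in proximal markers the count was 16 higher and 6 lower, with a median of 0.24. At an unadjusted edgeR p under 0.05, 2 were higher and 1 lower there, as were 3.7% and 3.26% of all tested genes. In the 3 libraries high in these markers 12 of the 22 were called higher, as were 3.57% of all tested genes. Without SPF 4 the differences were -0.74 for Ugt2b5, -0.52 for Ugt1a6a and -0.40 for Ephx1. Nuclear receptors and regulators divided into 7 higher and 12 lower of 19, with a median of -0.03, and into 16 higher and 3 lower in the 7 libraries, with a median of 0.12. Genes of retention in the endoplasmic reticulum divided into 4 higher and 4 lower, and into 5 and 3 in the 7 libraries. Genes of bile acid and retinyl ester handling divided into 5 higher and 4 lower of 9, and into 7 and 2 in the 7 libraries. In those 7 libraries 2 were higher at an unadjusted edgeR p under 0.05, as were 3.7% of all tested genes. Over all 10 libraries the lowest edgeR p values of this list belonged to Scarb1, Lrat and Fgf15. Scarb1, a lipoprotein receptor, differed by -1.06 ± 0.50 and Lrat, which esterifies retinol, by -0.42 ± 0.21. Fgf15, a hormone the ileum releases on bile acid uptake, differed by 1.26 ± 1.18. Without SPF 4 Scarb1 was at -0.28 and Lrat at -0.28. Fgf15 ran from 0.76 without VSG 4 to 2.13 without SPF 5, and it was lower by 4.61 on the log2 scale in the 3 libraries high in proximal markers (edgeR adjusted p 0.0218).

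Since Ces1d is abundant in fat and liver, markers of those tissues were read in the same libraries. Adipoq, the adipocyte hormone gene, ranged from 1.04 to 4.93 CPM in VSG and from 0.81 to 10.7 CPM in SPF libraries. SPF 2 held the lowest Adipoq (0.81 CPM, with Ces1d at 19.1 CPM) and SPF 5 the highest (10.7 CPM, with Ces1d at 18.6 CPM). Of the 13 adipocyte markers 11 were lower and 2 higher in VSG libraries, with a median log2 difference of -0.29 and none at an unadjusted p under 0.05 in edgeR. In the 7 libraries 9 were lower and 4 higher, with a median of -0.45. At an unadjusted edgeR p under 0.05, 2 were higher, as were 3.7% of all tested genes. They summed to 259 to 911 CPM in VSG and 173 to 1255 CPM in SPF libraries, with Pck1 and Cd36, which enterocytes also express, as large contributors in SPF 2. The 10 hepatocyte markers summed to 12.5 to 104 CPM in VSG and 11.1 to 38.4 CPM in SPF libraries, with Alb at 0.20 to 10.4 and 0.10 to 1.11 CPM. Tat alone was at 81.7 CPM in VSG 3, the library with the highest sum. Of the 6 that were tested, 3 were higher and 3 lower, with a median of 0.27. In edgeR 1 was higher at an unadjusted p under 0.05, as were 1.88% of all tested genes. In the 7 libraries 4 were higher and 2 lower, with a median of 1.21. There 2 were higher at that p, as were 3.7% of all tested genes. Of the 9 pancreatic acinar markers, 8 stayed under 1 CPM in every library. The part of these cells in the Ces1d difference was not tested.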

How the data were processed

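RNA of 10 terminal ileum libraries was prepared with an Illumina TruSeq kit and read from one end for 50 bases, per the labels' protocols. The authors deposited estimated counts per gene, in tables named for RPKM whose values are on the scale of reads. Exactly whole, with no tolerance, were 61.18% of all values, zeros included, and 33.33% of those above 0. They also deposited log2 values, which equal the log2 of a scaled count minus the SPF median. The submitters' processing notes name build mm9 and DESeq. No counting method is stated there.

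The estimated counts were rounded. Genes were filtered with filterByExpr (minimum count 10), scaled by TMM and tested with the quasi-likelihood test of edgeR 4.0.16 (R 4.3.3), VSG against SPF, with Benjamini-Hochberg adjustment over all 15678 genes and a threshold of 0.05. CPM use TMM-scaled library sizes. The 3 libraries high in proximal markers (Gata4, Lct, Onecut2, Adh6a, Gip, Pdx1, Cybrd1 and Slc40a1) were compared with the other 7 with surgery as a term. Correlations used log2 CPM (prior count 2). The test was also run on simulated counts. The simulated surgery comparison held no difference between the marker classes, so it cannot show how the spread they add affects the test. Alternatives were DESeq2 1.42.0, limma-voom (limma 3.58.1), other scalings, no filter, a replicate block, the deposited log2 values and omission of each library.

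All 8 members and all other carboxylesterases are named; from each other list, up to 3 genes with the lowest p; and the 5 genes most like Ces1d. The members and lists were chosen with earlier results of these data known. Of 241 list entries, 3 symbols were not matched. Windows were searched in GENCODE M21 transcripts (GRCm38), not the build of the files, so no coordinates are given. With 15364651 counts in the smallest library, members of a few CPM rest on few reads (22.4 estimated counts for Ces1c in SPF 4), and the intervals cover the spread between libraries only.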

Additional observations from a re-analysis of the deposited data

Results flagged for a closer look

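In 5 of the 16 combinations of member and surgery group, 1 library stood apart from the other 4 by more than Dixon's 95% limit, where chance gives about 1 in 20 groups. Over all tested genes 9.05% of 31356 such combinations did. SPF 4 accounts for 3 of them: Ces1e at 64.7 CPM and Ces1f at 188.6 CPM were far above the other SPF libraries, and Ces1c at 1.23 CPM was far below them. SPF 4 is also among the 3 libraries high in proximal markers. VSG 3 accounts for the other 2, with Ces1c at 3.24 CPM and Ces2c at 609.6 CPM, both above the other VSG libraries. Neither group of Ces1d had such a library.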

How the results depend on the processing

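The signs of Ces1d and of all 4 Ces1 paralogs between VSG and SPF held in every alternative run. No paralog of Ces1d was called between VSG and SPF in any of these runs. Ces1d itself carries no test in this comparison and was not counted. DESeq2 called 11 genes between VSG and SPF against 0. Between the marker classes DESeq2 called 1610 genes against 991. Leaving out single libraries gave 504 (without SPF 4) to 1066 genes, 658 without VSG 2, and 0 to 1 members.

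Small differences between VSG and SPF turned sign. Ces2e became -0.0281 with library totals and lay between -0.12 and 0.19 with single libraries left out. Ces2a became 0.0127 in limma-voom, 0.45 in the 7 libraries, 0.0702 with the marker covariate and 0.0438 on the deposited log2 values, and ran from -0.27 to 0.21 with single libraries left out. Ces3a became 0.93 in limma-voom, 1.09 with the covariate, 0.85 on the deposited values, and -1.17 to 0.69 with libraries left out. In the 7 libraries Ces2f became 0.28 and Ces2g 0.15; with libraries left out they ran from -0.61 to 0.0518 and from -1.85 to 0.10. The deciding omissions were SPF 2 for Ces2a and Ces2f and SPF 4 for Ces2g and Ces3a.

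Between the marker classes Ces1g became -0.13 in limma-voom and Ces1b 0.0939 without surgery as a term. With libraries left out, Ces1g ran from -0.94 to 0.75, Ces2a from -0.0040 to 0.94, Ces1f from -0.13 to 1.28, Ces1b from -0.58 to 0.23 and Ces2b from -0.30 to 0.62. The correlations of Ces1d with Ces2a and Ces2c became -0.10 and -0.0816 with the marker class also subtracted. Within the 7 libraries, a setting chosen after seeing the data, they were -0.49 and -0.61, and those with Ces1e, Ces1f and Ces1g -0.48, -0.64 and -0.79. With libraries left out they ran from -0.12 to 0.58 for Ces1e, -0.39 to 0.42 for Ces1f, -0.48 to 0.35 for Ces1g, -0.0551 to 0.19 for Ces2a, -0.18 to 0.23 for Ces2c and -0.34 to 0.0501 for Ces2e. The causes of these turns were not tested.

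Same-numbered VSG and SPF libraries had correlations of their deviations from -0.319 to 0.182. Whether the numbers pair animals cannot be told from such values, and the labels do not say. With the replicate block 0 genes were called, 408 had an unadjusted p under 0.05, and Ces2a and Ces3a became 0.0290 and 0.39. Ces1c rested on 22.4 to 176.7 estimated counts per library; Ces3a could not be tested in the 7 libraries.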
